A study of Arabidopsis thaliana with 8 samples.

Results

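The thalianol and marneral clusters of Arabidopsis thaliana are 2 groups of neighbouring triterpene genes on chromosome 5. The 8 genes described here are 5 loci of the thalianol cluster and 3 of the marneral cluster, out of 20701 gene loci in the mRNA table. They were chosen by locus, with the higher counts of most of them in transgenic seedlings already known. Their difference between transgenic and wild-type seedlings is therefore given as a description, without a test.

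In both clusters an oxidosqualene cyclase folds squalene epoxide, which the sterol pathway also uses, into a triterpene scaffold, and cytochrome P450 enzymes encoded next to it oxidise that scaffold. In the thalianol cluster THAS1 (AT5G48010) encodes thalianol synthase. CYP708A2 (AT5G48000) encodes the hydroxylase of thalianol, and CYP705A5 (AT5G47990) encodes the desaturase of thalian-diol. In the marneral cluster MRN1 (AT5G42600) encodes marneral synthase, CYP71A16 (AT5G42590) marneral oxidase and CYP705A12 (AT5G42580) another P450 of the CYP705A subfamily. The gene table used here annotates no role for AT5G47980 and AT5G47950, the other 2 thalianol cluster loci. Both clusters are known for expression in roots and for repressive Polycomb chromatin where they are silent.

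Messenger RNA was sequenced from whole Columbia seedlings, 10 days after germination, kept at 22 °C under a day of 18 h light and a night of 6 h. Wild-type seedlings were compared with seedlings carrying 35S:CAHB12, a coffee gene for a homeodomain-leucine zipper class I transcription factor behind the constitutive 35S promoter of cauliflower mosaic virus. Each group had 2 libraries, each from a pool of 50 seedlings, and the labels call them biological replicates. The design text mentions 2 transgenic lines, but no label ties a library to a line. The 4 libraries held between 15424261 and 19436632 counts, and the coffee transcript itself was not analysed here. The transgenic libraries stood apart from each other in seed storage transcripts, and ranges with each library left out are given for the cluster genes.

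The thalianol synthase gene THAS1 was counted 161 and 211 times in the wild-type libraries and 905 and 889 times in the transgenic libraries. As CPM, counts scaled to the library total with TMM factors, this was 10.3 and 10.9 CPM in wild type against 57.2 and 54.6 CPM in the transgenic libraries. Both transgenic libraries stood far above both wild-type libraries, and libraries of the same genotype lay close together. The log2 fold change fitted by edgeR was 2.40 (SE 0.11), and 2.35 to 2.44 with 1 library left out.

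CYP708A2, which encodes the enzyme that hydroxylates thalianol, followed THAS1 closely. It stood at 8.87 and 9.21 CPM in wild type against 48.7 and 45.3 CPM in the transgenic libraries, a log2 fold change of 2.38 (SE 0.11; 2.31 to 2.43 with 1 library left out). CYP705A5, which encodes the desaturase that acts after it, had 10.3 and 8.07 CPM in wild type against 64.1 and 65.2 CPM in the transgenic libraries. Its log2 fold change of 2.82 (SE 0.13) was the highest of the thalianol cluster. The wild-type libraries differed more for this gene than for the other 2, and its log2 fold change ranged from 2.65 to 3.001 when 1 library was left out.

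The other 2 thalianol cluster loci did not share this difference in size. AT5G47980 had 27 and 31 counts in wild type against 31 and 50 in the transgenic libraries, or 1.72 and 1.60 CPM against 1.96 and 3.07 CPM. The transgenic libraries were above the wild-type libraries, but transgenic replicate 1 only narrowly. The log2 fold change of AT5G47980 was 0.60 (SE 0.31), and without transgenic replicate 2 it was 0.24. AT5G47950 had 4.09 and 3.10 CPM in wild type against 3.29 and 2.76 CPM in the transgenic libraries. Its groups overlapped, and its log2 fold change was -0.24 (SE 0.24).

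The marneral cluster was much less abundant, and its genes had few counts. MRN1, the cyclase gene of the cluster, had 0 and 1 counts in the wild-type libraries and 20 and 26 in the transgenic libraries. It was thus barely counted in wild type, and stood at 1.26 and 1.60 CPM in transgenic seedlings. For the count of 0 in wild-type replicate 1, the floor of 3 counts is 0.191 CPM and the exact 95% Poisson interval reaches 0.236 CPM. The summed counts of 1 and 46 give a ratio of 50.1 with an exact 95% counting interval of 8.56 to 2022, so the size of the MRN1 difference is poorly known.

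CYP71A16, whose enzyme oxidises marneral, had 22 and 30 counts in wild type against 91 and 121 in the transgenic libraries. In CPM this was 1.40 and 1.55 against 5.75 and 7.43, a log2 fold change of 2.15 (SE 0.24; 1.95 to 2.31 with 1 library left out). CYP705A12 had 5 and 8 counts in wild type against 18 and 37 in the transgenic libraries. It stood at 0.319 and 0.414 CPM in wild type against 1.14 and 2.27 CPM in the transgenic libraries, a log2 fold change of 2.18 (SE 0.50). For both genes the groups were apart. The transgenic libraries of CYP705A12 differed by a factor of 1.996 (counting interval 1.11 to 3.72), and its log2 fold change ranged from 1.60 to 2.58 with 1 library left out.

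**Figure D1:**
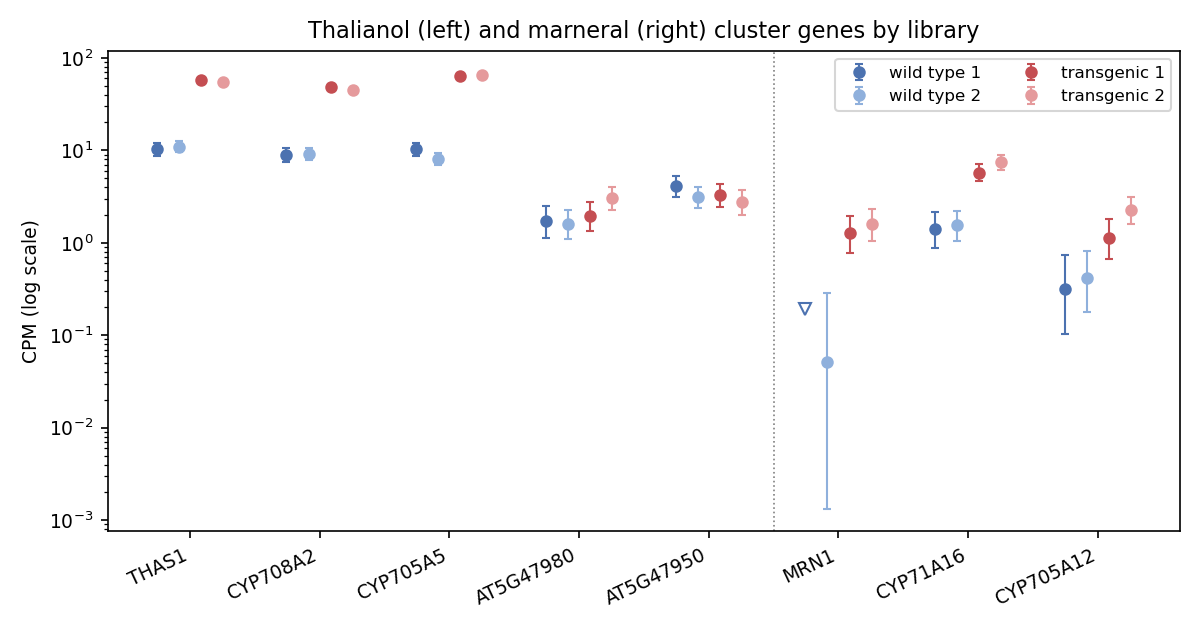
CPM (log axis) of each cluster gene in the 4 libraries, with exact 95% Poisson intervals that cover counting error only. The open triangle marks 3 counts (0.191 CPM) for MRN1 in wild-type replicate 1, where its count was 0. THAS1, CYP708A2 and CYP705A5 sit between 8.07 and 10.9 CPM in wild type and between 45.3 and 65.2 CPM in transgenic libraries, while AT5G47950 overlaps between groups.

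Of the 8 genes, 7 had both transgenic libraries above both wild-type libraries, against 20.2% of the 20298 genes tested. In edgeR a log2 fold change above 2 was found for 6 of the 8 and for 0.0936% of all genes. That share is 19 genes, with these 6 among them. The median over the 8 genes was 2.28, and over all genes tested 0.006. Since the genes were picked with this comparison known, these shares are descriptions. All 8 genes passed the filter on low counts, but MRN1 and CYP705A12 passed through the transgenic libraries alone.

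**Figure D2:**
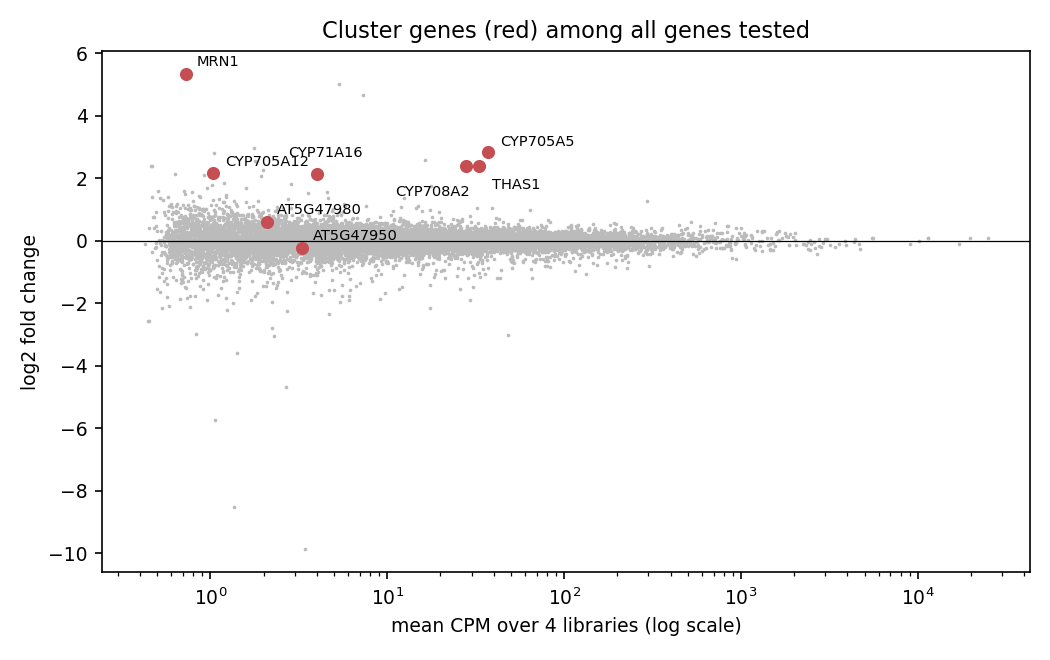
Log2 fold change (transgenic against wild type, edgeR) against mean CPM over the 4 libraries (log axis), with 1 grey point per gene tested and the cluster genes in red. THAS1, CYP708A2 and CYP705A5 lie above 2 at far higher abundance than the marneral genes, and AT5G47950 lies at -0.24. The value of MRN1 rests on 1 wild-type count and depends on the fit.

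Agreement between replicates of the same genotype differed by gene. The ratio of replicate 2 to replicate 1 could be formed for 15 of the pairs of libraries, and in 13 its counting interval held 1, with wide intervals for the rare genes. The exceptions were CYP705A5 in wild type, with a ratio of 0.785 (0.626 to 0.985), and CYP705A12 in transgenic seedlings, given above. For CYP705A12 in wild type it was 1.30 (0.374 to 5.04), and for AT5G47980 in transgenic seedlings 1.57 (0.981 to 2.54). For THAS1 the ratio was 1.06 (0.861 to 1.31) in wild type and 0.954 (0.869 to 1.05) in transgenic seedlings. The 8 genes together summed to 36.96 and 34.9 CPM in wild type against 183.4 and 182 CPM in the transgenic libraries.

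Levels of different genes were compared per kilobase, as RPKM computed from the counts and the deposited lengths. The lengths of the 8 genes were 85.1% to 98.6% of the annotated gene span, introns included. A gene with much intron sequence is thus given a lower RPKM than its spliced length would give, which bears on the order of levels between genes but not on the same gene across libraries. On this scale CYP705A5 led the thalianol cluster in wild type, at 4.93 ± 0.839 RPKM (SD, n = 2). CYP708A2 at 2.44 ± 0.0633, AT5G47950 at 2.37 ± 0.459 and THAS1 at 2.24 ± 0.0949 RPKM (SD, n = 2) lay together, and AT5G47950 did not differ from the other 2 beyond its spread. AT5G47980 had 1.05 ± 0.0536 RPKM.

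The marneral genes came last in wild type. CYP71A16 had 0.565 ± 0.0398 RPKM and CYP705A12 0.232 ± 0.0422 RPKM (SD, n = 2), and MRN1 had 0 and 0.0109 RPKM in the libraries. Among all listed loci, 22.1% had a lower wild-type RPKM than THAS1, 41.9% than CYP705A5 and 5.0% than CYP71A16. In transgenic seedlings these shares were 68.4%, 89.0% and 24.2%. THAS1 and CYP705A5 thus stood in the lower part of the listed loci in wild type and in the upper part in transgenic seedlings, and CYP71A16 stood in the lower part in both.

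In transgenic seedlings CYP705A5 had 34.7 ± 0.391 RPKM, CYP708A2 12.7 ± 0.654 RPKM and THAS1 11.8 ± 0.394 RPKM (SD, n = 2). CYP705A5 stood apart, and the other 2 lay close together. They were followed by CYP71A16 at 2.52 ± 0.453, AT5G47950 at 1.996 ± 0.245, AT5G47980 at 1.58 ± 0.494 and CYP705A12 at 1.08 ± 0.506 RPKM (SD, n = 2). Neighbours in that last order lay within or near each other's spread. MRN1 came last at 0.302 ± 0.0496 RPKM.

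Within a library the amounts of the cluster genes kept different proportions. The RPKM of CYP708A2 was 1.10 and 1.08 times that of THAS1 in wild type against 1.09 and 1.06 times in the transgenic libraries, so this proportion was nearly the same in all 4 libraries. For CYP705A5 the ratio to THAS1 was 2.54 and 1.88 in wild type against 2.85 and 3.03 in the transgenic libraries. Both transgenic ratios were above both wild-type ratios, and the wild-type libraries differed from each other by more than the gap between the groups.

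AT5G47980 and AT5G47950 made up a smaller part of the thalianol cluster in transgenic seedlings. AT5G47950 took 19.4% and 16.8% of the summed cluster RPKM in wild type against 3.44% and 2.92% in the transgenic libraries. AT5G47980 took 7.83% and 8.29% in wild type against 1.96% and 3.09% in the transgenic libraries. The RPKM of AT5G47950 overlapped between the groups and that of AT5G47980 was higher in transgenic libraries, while the sum over the 5 genes was 13.9 and 12.2 RPKM in wild type and 63.1 and 62.5 RPKM in transgenic seedlings.

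CYP71A16 took the greater part of the marneral cluster in every library, with 72.7% and 68.5% in wild type against 69.1% and 61.6% in the transgenic libraries. CYP705A12 took 27.3% and 30.2% in wild type against 22.6% and 31.1% in the transgenic libraries. MRN1 took at most 1.26% in wild type against 8.39% and 7.32% in the transgenic libraries. The cyclase transcript was thus the smallest part of its cluster per kilobase of gene span, whereas the cyclase of the thalianol cluster stood level with the hydroxylase. This order depends on the lengths: in transgenic replicate 1 MRN1 had 20 counts and CYP705A12 had 18.

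**Figure D3:**
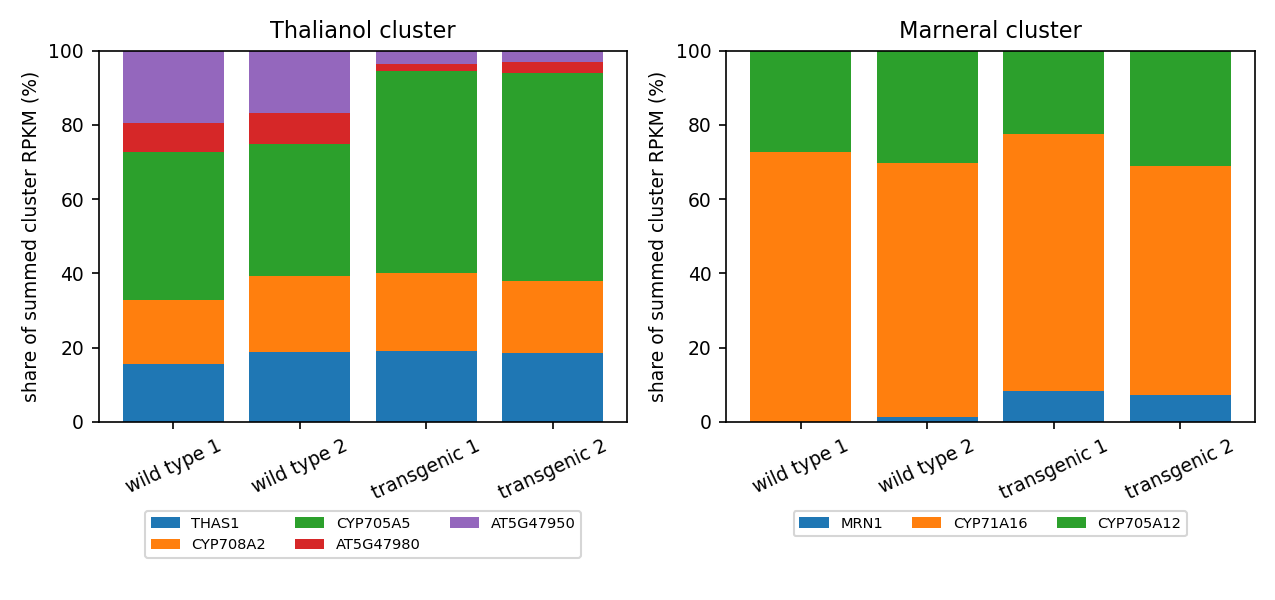
Share of each gene in the summed RPKM of its cluster (percent, RPKM per kilobase of gene span), for each library. In the thalianol cluster CYP705A5 takes 39.8% and 35.6% in wild type against 54.6% and 56.0% in the transgenic libraries, and AT5G47950 takes 19.4% and 16.8% against 3.44% and 2.92%. The marneral shares rest on few counts.

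The genes around the clusters were examined to see how far along the chromosome the difference reached. By position in the gene table, 5 protein-coding loci on each side of each cluster and the 2 loci between AT5G47950 and AT5G47980 were taken, 22 in all. Of the 19 with enough counts, 0 passed edgeR's quasi-likelihood test at a Benjamini-Hochberg adjusted p under 0.05, where 0.0838% of all genes passed. An unadjusted p under 0.05 was reached by 2 of them and by 7.92% of all genes, and DESeq2 and limma called 0.

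The locus next to THAS1, AT5G48020, had 32.8 and 30.6 CPM in wild type and a log2 fold change of -0.03 (SE 0.10). The large difference thus ended at THAS1 on this side. On the other side, past AT5G47980, lay RABA4C (AT5G47960), a small GTPase gene with a log2 fold change of 0.45 (SE 0.28), and AT5G47970, with 0.11 (SE 0.20). The gene models of RABA4C and AT5G47970 overlap, so reads can be shared between them. No annotated gene overlaps any of the 8 cluster genes in the gene table.

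Beyond AT5G47950, RBOHD (AT5G47910), a gene for a respiratory burst oxidase, had 71.5 and 51.9 CPM in wild type against 38.4 and 39.7 CPM in the transgenic libraries. Its log2 fold change of -0.66 (SE 0.15) did not pass over all genes (edgeR adjusted p = 0.297), and was -0.41 without wild-type replicate 1. It passed without wild-type replicate 2, at -0.88. Next to MRN1, AT5G42610 had 11 and 12 counts in wild type against 10 and 20 in the transgenic libraries, so its groups overlapped. On the other side of the marneral cluster AT5G42570 had a log2 fold change of -0.07 (SE 0.11). Farther out, XRN2 (AT5G42540, an exoribonuclease gene) and AT5G42560 had -0.085 and 0.14, and around the thalianol cluster AT5G48040 and AT5G47900 had 0.29 and 0.48. None of these passed. AT5G42530, the locus farthest out beyond CYP705A12, had 39.5 and 77.4 CPM in wild type against 19.2 and 31.6 CPM in the transgenic libraries (log2 fold change -1.21, SE 0.32, edgeR adjusted p = 0.39). Without wild-type replicate 2 it was -0.64, and without wild-type replicate 1 it passed, at -1.61.

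**Figure D4:**
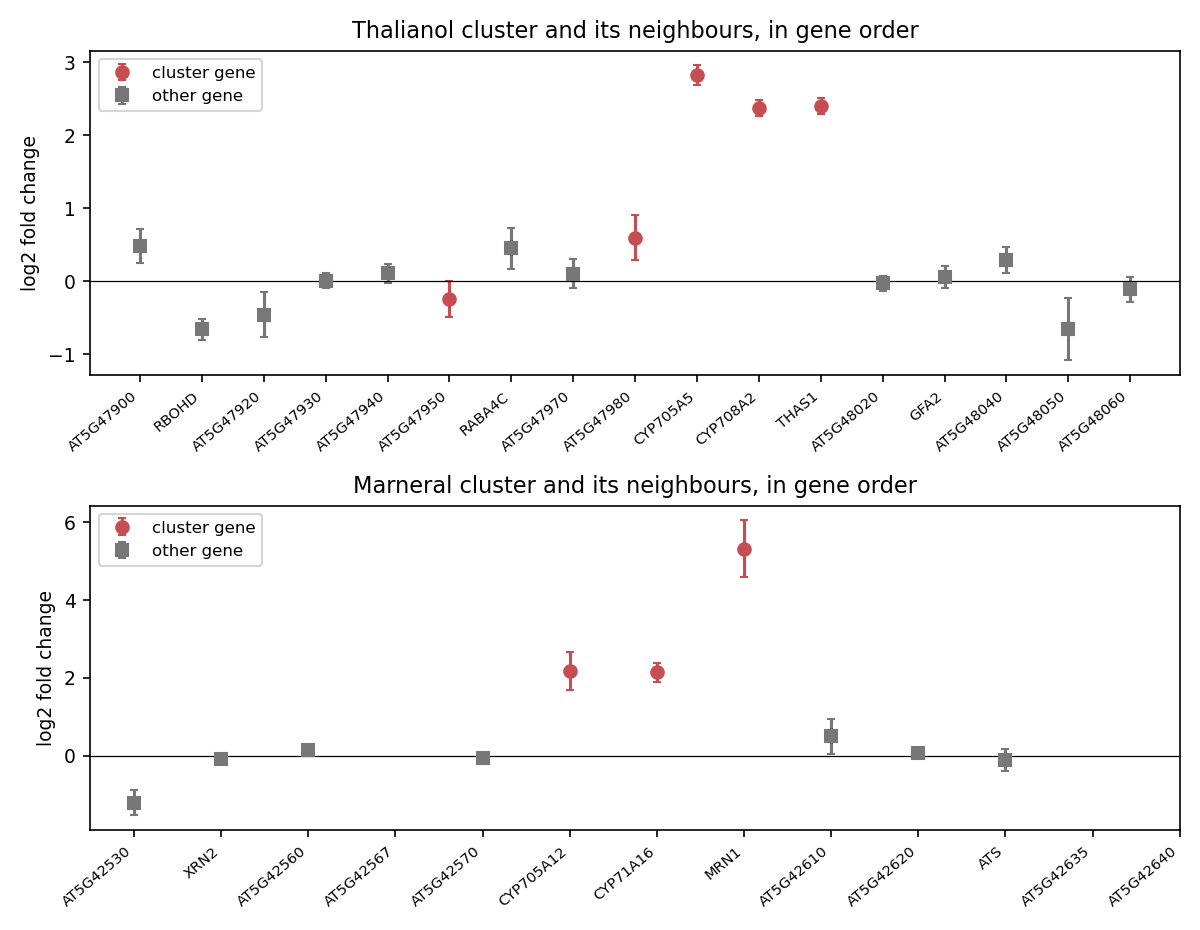
Log2 fold change (transgenic against wild type, edgeR, bars are SE) of the cluster genes in red and their neighbours in grey, in gene order, with no point for loci that have no value. In the thalianol cluster the 3 adjacent genes CYP705A5, CYP708A2 and THAS1 stand between 2.38 and 2.82, and AT5G48020 next to them stands at -0.03. In the marneral cluster all 3 genes stand above 2.

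Later steps of triterpene pathways can be encoded outside a cluster, and 2 loci on other chromosomes had been listed beside the thalianol genes. SDR4 (AT3G29250), a short-chain dehydrogenase/reductase gene, had 11.4 and 9.57 CPM in wild type against 9.23 and 9.21 CPM in the transgenic libraries, with a log2 fold change of -0.18 (SE 0.15). AT1G66800, for which the gene table gives no role, had 8 and 16 counts in wild type against 56 and 50 in the transgenic libraries. Its groups were well apart, with a log2 fold change of 2.26 (SE 0.33), but it did not pass over all genes (edgeR unadjusted p = 0.00012, adjusted p = 0.0834). Its log2 fold change was 2.28 in DESeq2, where it passed, 1.99 without wild-type replicate 1 and 2.67 without wild-type replicate 2. In wild-type replicate 1 it stood at 0.511 CPM, below the filter cutoff of 0.619 CPM. It was thus kept for testing through the transgenic libraries, where it was high. The list was also chosen with earlier results of these data known, so the values of AT1G66800 are descriptions.

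Genes that supply squalene epoxide, the substrate of both cyclases, showed no such difference. None of the 19 tested genes, from acetoacetyl-CoA thiolase to the squalene epoxidases, passed edgeR's test, where 0.0838% of all genes passed. At that share a count of 0 says little about a short list. An unadjusted edgeR p under 0.05 was reached by 0 of the 19, beside 7.92% of all genes. DESeq2 and limma called 0 of the 19. Their median log2 fold change was -0.006, against 0.006 over all genes tested. FPS1 (AT5G47770), a farnesyl diphosphate synthase gene that lies on chromosome 5 too, had 45.6 and 49.2 CPM in wild type against 51.6 and 54.7 CPM in the transgenic libraries, a log2 fold change of 0.16 (SE 0.096). HMGS (AT4G11820), for hydroxymethylglutaryl-CoA synthase, had -0.15, and the squalene epoxidase gene SQE3 (AT4G37760) -0.26. The squalene epoxidase homologue SQP1 (AT5G24150) had 31.8 and 9.31 CPM in wild type against 14.98 and 6.81 CPM in the transgenic libraries, so its groups overlapped. Its log2 fold change of -0.90 turned to 0.22 without wild-type replicate 1, and it passed without wild-type replicate 2, at -1.55.

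The other oxidosqualene cyclases did not follow THAS1 and MRN1. Of 11 listed, 7 had values, and 0 passed edgeR's test (0.0838% of all genes), DESeq2 or limma. An unadjusted edgeR p under 0.05 was reached by 2 (7.92% of all genes). CAS1 (AT2G07050), the cycloartenol synthase gene of sterol synthesis, had a log2 fold change of 0.02 (SE 0.10). The baruol synthase gene BARS1 (AT4G15370) had 12 and 18 counts in wild type against 7 and 5 in the transgenic libraries, and the beta-amyrin synthase gene BAS (AT1G78950) 31 and 34 counts against 18 and 18. These values lay on the lower side, at log2 fold changes of -1.18 (SE 0.47) and -0.73 (SE 0.30), with edgeR adjusted p = 0.605 and 0.612. The arabidiol synthase gene PEN1 (AT4G15340) had -0.35 and the lupeol synthase gene LUP1 (AT1G78970) -0.20. The median over the 7 genes was -0.20. It was 0.005 without wild-type replicate 2, -0.30 when replicate 1 was left out instead, and -0.09 with a filter of 1 CPM in 2 libraries.

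Related P450 genes, from the CYP705A, CYP708A and CYP71A subfamilies, were next compared, since close copies can share reads. Of 30 tested, 0 passed edgeR's test (0.0838% of all genes), DESeq2 or limma. An unadjusted edgeR p under 0.05 was reached by 2, beside 7.92% of all genes. Of the 30, 10 were higher and 5 lower without overlap, beside 20.2% and 19.3% of all genes. Their median log2 fold change was 0.08, -0.07 without wild-type replicate 2, and the highest was 0.60. CYP705A8 (AT2G27000) had 106 and 145 counts in wild type against 147 and 169 in the transgenic libraries, a log2 fold change of 0.46 (SE 0.15). CYP705A30 and CYP705A15 had 0.48 and 0.24, and CYP705A20 (AT3G20110) had -0.97 (SE 0.36). No relative came near the values of CYP705A5, CYP708A2, CYP71A16 or CYP705A12. The cluster genes themselves were not in this list, and sharing of reads between copies was not tested.

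Listed chromatin regulators, among them Polycomb subunits and the H2A.Z deposition complex, had a median log2 fold change of -0.004. None of the 17 tested passed edgeR's test, DESeq2 or limma, where 0.0838% of all genes passed edgeR's test. An unadjusted edgeR p under 0.05 was reached by 0 of the 17, beside 7.92% of all genes. The H2A.Z genes HTA11 (AT3G54560), HTA8 (AT2G38810) and HTA9 (AT1G52740) had log2 fold changes of -0.29, -0.29 and 0.13. TFL2 (AT5G17690), which encodes LHP1, a reader of the Polycomb mark, had -0.21 (SE 0.13). These are amounts of mRNA, and the chromatin of the clusters was not measured here.

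Both clusters are root-expressed, and in whole seedlings a different number of cells of a type and a different amount of RNA per cell cannot be told apart. The 18 root markers summed to 1526 and 1460 CPM in wild type and to 1791 and 1673 CPM in transgenic seedlings, 1.16 times as much. Most of that sum was PYK10 (AT3G09260), a root beta-glucosidase gene, which stood at 1214 and 1143 CPM in wild type against 1524 and 1383 CPM in the transgenic libraries. The 17 markers other than PYK10 summed to 312 and 317 CPM in wild type and to 267 and 290 CPM in transgenic seedlings, 0.885 times as much. The summed root level was thus above wild type with PYK10 and below it without PYK10. That lower sum also rested on 1 gene, the phosphate transporter gene PHT1;1. It held 97.3 and 98.2 CPM in wild type against 58.1 and 66.4 CPM in the transgenic libraries, a fall of about the size of that in the sum. The part of root content in the cluster values was not tested.

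Of the 17 root markers tested, 0 passed edgeR's test (0.0838% of all genes) and 4 had an unadjusted p under 0.05 (7.92% of all genes). Of the same 17, 2 were higher and 6 lower without overlap, beside 20.2% and 19.3% of all genes. Their median log2 fold change was -0.08. The phosphate transporter gene PHT1;1 (AT5G43350) had 97.3 and 98.2 CPM in wild type against 58.1 and 66.4 CPM in the transgenic libraries (log2 fold change -0.65, SE 0.10, edgeR adjusted p = 0.0969). It passed in DESeq2, without wild-type replicate 1 and without wild-type replicate 2. The nitrate transporter gene NRT2:1 (AT1G08090) and the root hair gene SHV2 (AT5G49270) had -0.65 and -0.63. No root marker had a count of 0 in any library.

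The 6 shoot markers summed to 24070 and 21660 CPM in wild type against 21620 and 21980 CPM in the transgenic libraries. Of the 6, 0 passed edgeR's test, DESeq2 or limma, where 0.0838% of all genes passed edgeR's test. An unadjusted edgeR p under 0.05 was reached by 3 of the 6 and by 7.92% of all genes. CAB2 (AT1G29920), LHCB2.1 (AT2G05100) and LHCA3 (AT1G61520), for light-harvesting proteins, had log2 fold changes of -0.44, -0.58 and -0.14, and CA1 (AT3G01500), for carbonic anhydrase, 0.32. LHCB2.1 passed without wild-type replicate 2, at -0.85, and was -0.26 without wild-type replicate 1 and -0.34 without transgenic replicate 2. CAB2 was -0.25 without wild-type replicate 1. Seed storage and oil body markers separated the transgenic libraries from each other, with a sum over 4 genes of 2.21 CPM in replicate 1 and 119 CPM in replicate 2, and of 19.7 and 45.8 CPM in wild type. The seed storage genes CRU3 (AT4G28520) and CRA1 (AT5G44120) and the oleosin genes OLEO1 (AT4G25140) and OLEO2 (AT5G40420) overlapped between groups. In these same libraries THAS1, CYP708A2 and AT5G47950 were lower in replicate 2, and AT5G47980, MRN1, CYP71A16, CYP705A12 and, by 1.02 times, CYP705A5 were higher in it. The part of this split in the cluster values was not tested.

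**Figure D5:**
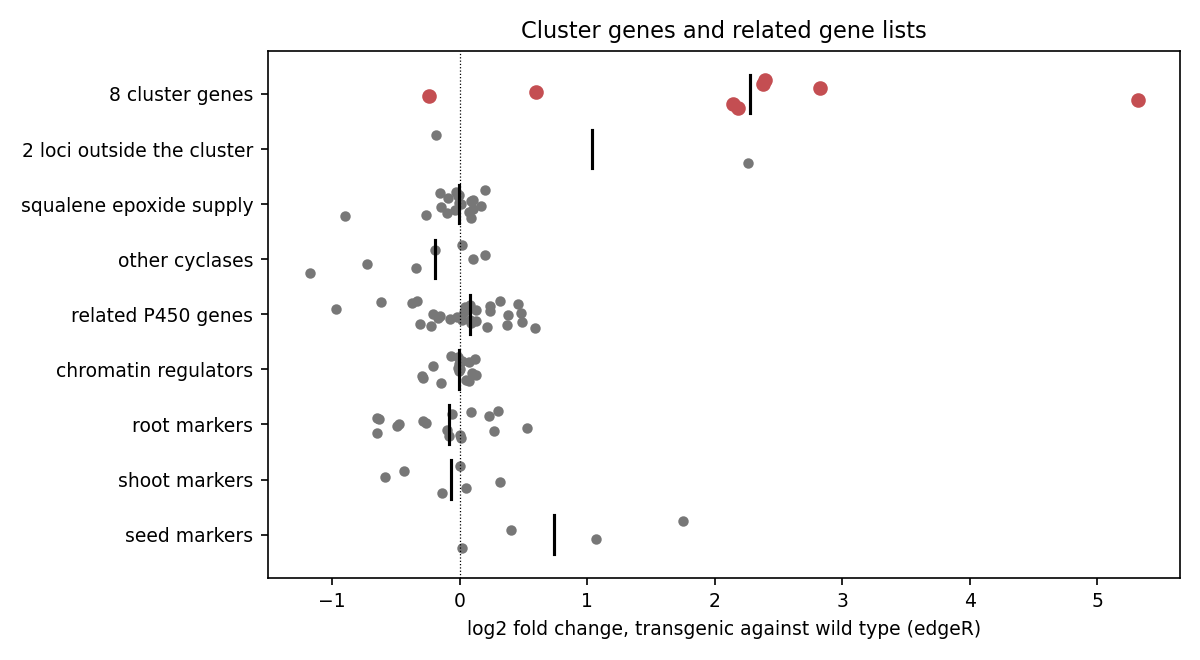
Log2 fold change (transgenic against wild type, edgeR) of each gene tested in the cluster set in red and in the related lists in grey, with a bar at each median. The cluster genes have a median of 2.28, and the lists for squalene epoxide supply, other cyclases, related P450 genes, chromatin regulators, root markers and shoot markers have medians between -0.20 and 0.08. The 2 loci outside the cluster lie far apart, SDR4 at -0.18 and AT1G66800 at 2.26, so their median of 1.04 describes neither. The seed markers, whose groups overlap, have a median of 0.74.

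Among the genes tested, the profile over the 4 libraries nearest to that of THAS1 was that of CYP708A2. Likeness was measured as the Euclidean distance between log2 CPM values centred on each gene's mean, and CYP708A2 lay at 0.04. These log2 CPM values include a prior count of 2, which shrinks differences in genes with few counts, such as MRN1. CYP71A16 ranked 5 and CYP705A5 6, at distances of 0.45 and 0.53. CYP705A12 ranked 13, MRN1 24, AT5G47980 487 and AT5G47950 17811.

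The nearest genes outside the clusters were CHX17 (AT4G23700), a cation/proton exchanger gene, AT2G43580, AT1G66800, AT5G23840 and the noncoding RNA locus AT3G27884, at distances of 0.34, 0.39, 0.44, 0.53 and 0.55. CHX17 had 5.23 and 4.14 CPM in wild type against 28.1 and 27.6 CPM in the transgenic libraries. AT2G43580 had 5 and 4 counts in wild type against 32 and 27 in the transgenic libraries. AT5G23840 had 12 and 14 counts against 55 and 45, and AT3G27884 had 6 and 7 against 25 and 29. In each of these genes both transgenic libraries stood above both wild-type libraries, which follows from their choice by likeness to THAS1. With 4 libraries, likeness of profile mostly reflects the difference between the genotypes.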

How the data were processed

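Messenger RNA values were the authors' raw read counts per locus, per the file headers. The deposited table also gives CPM and RPKM computed by the authors from those counts, which were not used. The deposited length, in another unit (bases), is headed transcript length, but its median was 93.9% of the annotated gene span. BWA 0.5.8c, Bowtie, edgeR and build TAIR9 appear in the submitters' processing notes, without saying which step each served. The table holds loci whose highest count in a library was 11 or more. Of 20701 loci, 20420 were in the gene table (TAIR10.1), which served for names and gene order alone. The small RNA table was not used.

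Counts were fitted over the whole table with edgeR 4.0.16 (R 4.3.3; TMM, filterByExpr, glmQLFit, glmQLFTest, no covariate), with Benjamini-Hochberg adjusted p under 0.05. The SE is the log2 fold change over the root of F. The common biological coefficient of variation was 0.103. CPM and RPKM reported here use TMM factors. Counting intervals are exact Poisson or conditional binomial intervals at 95%, and with the floor of 3 counts cover counting error only. With 2 against 2 libraries, p-values rest on variance shared across genes. Fits were tested on simulated data.

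The members and lists were chosen with earlier results of these data known. Text names all members, up to 4 genes per list by smallest p, and the 5 nearest profiles. AT5G48020, AT5G47970 and AT5G42570 were named for their position after values were seen. CAS1 was also chosen after its values were seen. Alternatives were RLE or no factors, other filters, DESeq2 1.42.0, limma 3.58.1 on log2(RPKM + 0.5) and log2(RPKM + 1), a replicate block and each library left out. With 1 library left out, the lone library is assumed to vary like the others. The root marker sum without PYK10 was chosen after seeing the data. Figures used matplotlib 3.10.9.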

Additional observations from a re-analysis of the deposited data

How the results depend on the processing

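The median log2 fold change of the 8 cluster genes (2.28) was 2.19 to 2.39 with 1 library left out and 1.28 or 0.95 in limma on log2(RPKM + 0.5) or log2(RPKM + 1), where the pseudocount shrinks low genes. Genes called over the whole table, 7 higher and 10 lower, were 29 and 47 in DESeq2, 6 and 4 in limma with either pseudocount, and 7 to 154 and 9 to 257 without 1 library, the highest without wild-type replicate 2. Listed genes called, 0 in either direction, were 1 higher and 1 lower in DESeq2 and 0 to 2 and 0 to 4 in fits that left out 1 library. With the replicate number as a block, 227 genes were called higher and 369 lower, and 3 (AT1G66800, IRT1, CRU3) and 6 (CAB2, LHCB2.1, SQP1, PHT1;1 and the neighbours RBOHD and AT5G42530) listed genes, while the cluster median was 2.29. Deviations of same-numbered libraries correlated at 0.228 across genes, but with 2 numbers this does not show pairing. The median wild-type level of the 8 genes, 1.64 RPKM, was 1.53 to 1.64 with 1 library left out. The seed gene CRA1 (0.41) had -4.45 without transgenic replicate 2 and 1.37 when transgenic replicate 1 was left out. The cause of these changes was not tested beyond the pseudocount. MRN1 ranged from 4.61 to 7.52 with 1 library left out, since depth limits it: it rests on 1 wild-type count. AT5G47950 stayed between -0.44 and -0.04, and AT5G47980 between 0.24 and 0.87.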
